A study of Mus musculus with 48 samples.

Results

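Zfp is the mouse symbol for a numbered zinc finger protein gene, and the 232 mRNAs described here are those of the Zfp genes that could be measured in mouse embryonic fibroblasts during a block of transcription. They are the genes whose single symbol in the platform's probe table is Zfp followed by digits, without Zfp36, each read through its brightest probe set and kept where 4 or more arrays read it above their own median. Of 304 such genes on the array, 232 passed and 72 did not, among 12999 genes of all kinds that passed. Of the 232, 110 lay above the median in all 48 arrays and 46 lay below it in more arrays than above it. There were 4 members above it in KO arrays only, 3 in WT arrays only and 9 only at 0 and 30 min. The filter kept these through the arrays where they were high, so their line differences or falls are partly selected by it. At the edge of the rule, Zfp760 and Zfp84 passed with 4 arrays each and mean log2 signals of 8.31 and 8.40, while Zfp949, with 3 arrays, and Zfp39, with 2 arrays, had 8.38 and 8.44 and were left out.

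The cells were fibroblast lines made from littermate E14.5 embryos, stripped of head and organs, of 129/B6 parents heterozygous for Zfp36. The KO line was Zfp36 -/- and the WT line Zfp36 +/+, apparently 1 line of each, so that a difference between them can also be one between any 2 lines. TTP, or tristetraprolin, is the Zfp36 product, which hastens the decay of mRNAs with AU-rich elements. Both lines were kept for 16 h in 0.5% serum and given 10% serum for 90 min before actinomycin D, a transcription inhibitor, was added at time 0. RNA from 3 pooled 100 mm dishes was taken at 0, 30, 60, 90 and 120 min in 5 experiments on 5 days, giving 5 arrays in each of the 10 groups of line and time, while the KO groups at 0 and 60 min have 4 arrays. The dose of actinomycin D is 0.5 µg/ml in the sample names and 5 µg/ml in the series text, which the sources used here do not settle.

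Most Zfp proteins carry arrays of C2H2 zinc fingers, small folds held by a zinc ion that read a few bases of DNA each. Many also have a KRAB domain, through which they recruit Trim28 and its histone methyltransferase and heterochromatin partners to silence retroelements and other targets. A smaller number work elsewhere, in ribosome assembly, splicing, spindle assembly or ubiquitin transfer. Transcripts of this class are known for short lives, and a block of transcription lets a short-lived mRNA drain away while a long-lived one stays. The Affymetrix signals are taken as log2 values. How they were scaled is not given, but the array medians lie close together, between 8.47 and 8.56. Each change is therefore read as relative to the average mRNA of the array.

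The promoters of the 3 members with the steepest falls, Zfp622, Zfp655 and Zfp281, are shown because these mRNAs carry the description that follows. The 250 bases before each gene's start come from RefSeq, GRCm38.p6, on the + strand, at chr15:25984116-25984365 for Zfp622, chr5:145231492-145231741 for Zfp655 and chr1:136624651-136624900 for Zfp281. Capitals mark TGACG, the core of the site read by CREB and ATF factors, and GGGCGG, the GC box read by Sp and Klf factors, each on either strand.
Zfp622: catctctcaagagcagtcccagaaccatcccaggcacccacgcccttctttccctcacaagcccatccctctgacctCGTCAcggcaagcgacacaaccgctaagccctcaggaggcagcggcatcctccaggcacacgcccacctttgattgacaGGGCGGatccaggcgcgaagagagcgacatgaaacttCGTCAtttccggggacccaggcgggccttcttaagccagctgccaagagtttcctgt
Zfp655: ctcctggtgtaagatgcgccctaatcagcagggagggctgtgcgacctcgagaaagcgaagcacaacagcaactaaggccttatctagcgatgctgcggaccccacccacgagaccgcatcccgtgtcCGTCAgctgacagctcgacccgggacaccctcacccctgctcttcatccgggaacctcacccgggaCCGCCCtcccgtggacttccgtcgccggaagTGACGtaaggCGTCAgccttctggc
Zfp281: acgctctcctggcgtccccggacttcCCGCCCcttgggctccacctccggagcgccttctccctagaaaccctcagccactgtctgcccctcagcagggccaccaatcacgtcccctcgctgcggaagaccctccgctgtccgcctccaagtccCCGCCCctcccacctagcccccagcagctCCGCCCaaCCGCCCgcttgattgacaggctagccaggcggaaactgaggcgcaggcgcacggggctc
Zfp622 held 2 TGACG and 1 GGGCGG, Zfp655 3 and 1, and Zfp281 0 and 4. Over the 300 bases from 250 before to 50 after the start, 189 of the 232 members had a promoter in the table. TGACG was present in 30.7% of the members' promoters, against 30.4% of 10458 promoters of all genes that passed and 21.0% of all 27025 promoters. GGGCGG was present in 48.1% of the members' promoters, 61.3% of those of all genes that passed and 35.9% of all. The ETS motif CCGGAAGT stood in 12.2% of the members' promoters, 7.59% of those of genes that passed and 4.00% of all, and in Zfp655 it shares its last base with one of the TGACG copies. The TATA box TATAAA stood in 6.35%, 8.07% and 14.2%. Among the 59 matched members that fell in both lines after actinomycin D, described next, TGACG stood in 42.4%, GGGCGG in 59.3% and CCGGAAGT in 15.3%. These are counts of letters in a window and show no binding.

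The members were dim mRNAs. Their mean log2 signals ran from 8.31 to 10.45 with a median of 8.68, against a median of 8.94 over all 12999 genes. The array medians lay between 8.47 and 8.56, the 5th percentiles between 8.02 and 8.13 and the maxima between 13.28 and 13.43. Signals near 8 carry little beyond background, so falls that end there can be compressed and the fold changes below can be low estimates. The cells' labelled type was compared with its markers. The 12 fibroblast genes averaged 11.00 to 11.25 over the KO arrays and 10.89 to 11.09 over the WT arrays. These averages rest on the brighter genes of the list. Thy1 did not pass the filter, with its highest array at 8.183 in KO and 8.202 in WT. Lum averaged 8.78 in KO and 8.38 in WT at 0 min, the latter below the array medians. The other fibroblast genes averaged from 9.54 for Pdgfra to 13.16 for Vim over all arrays. The epithelial, endothelial, muscle, and macrophage and blood lists averaged 8.16 to 8.63 in KO arrays and 8.16 to 8.81 in WT arrays. The 3 neural genes averaged 8.72 to 8.94 in KO arrays and 8.43 to 8.79 in WT arrays, with Tubb3 higher in KO at 0 min by 0.86. At 0 min 5 of the 11 tested fibroblast genes differed between the lines, with Pdgfra higher in KO by 1.18 on the log2 scale, and their part in the members' differences was not tested. Zfp36 itself had 9.60, 9.58, 9.28 and 9.59 at 0 min in KO, against 9.84, 10.14, 9.83, 9.69 and 9.83 in WT. Where its probes lie relative to the disruption is not known, so this signal does not check the genotype.

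After actinomycin D the Zfp mRNAs fell far more often than they rose, in both lines. A straight line of log2 signal on time was fitted per line with limma over all 27500 probe sets, and a slope counted as changed at a Benjamini-Hochberg adjusted p under 0.05 (two-sided). In KO, 96 of 232 members fell (41.4%) and 5 rose, against 14.6% of all genes that fell and 15.7% that rose. In WT, 106 members fell (45.7%) and 4 rose, against 17.8% and 15.0% of all genes. Both lines showed a fall in 81 members (34.9%; all genes, 12.3%) and a rise in 3 (all genes, 10.4%), and none was called in opposite directions. A fall was called in KO alone for 15 members and in WT alone for 25, and 105 members were called in neither line. Without the arrays at 0 min, 65 members fell in KO and 67 in WT, against 10.4% and 14.0% of all genes. In such bulk RNA, fewer cells holding an mRNA and less of it per cell cannot be told apart.

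The median slope of the members was -0.05 log2 per h in KO and -0.04 in WT, against 0.00 and 0.02 over all genes. Among the 81 that fell in both lines, slopes in KO ran from -0.91 to -0.06 with a median of -0.16, and slopes in WT from -1.06 to -0.05 with a median of -0.17. Most members moved little on this scale, beside a tail of fast ones. The medians over the members changed by -0.04, -0.10, -0.10 and -0.09 at 30, 60, 90 and 120 min in KO, and by -0.03, -0.07, -0.08 and -0.08 in WT. All genes stayed between -0.01 and 0.01 in KO and between 0.01 and 0.03 in WT. The members' medians were at about their final size by 60 to 90 min.

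**Figure D1:**
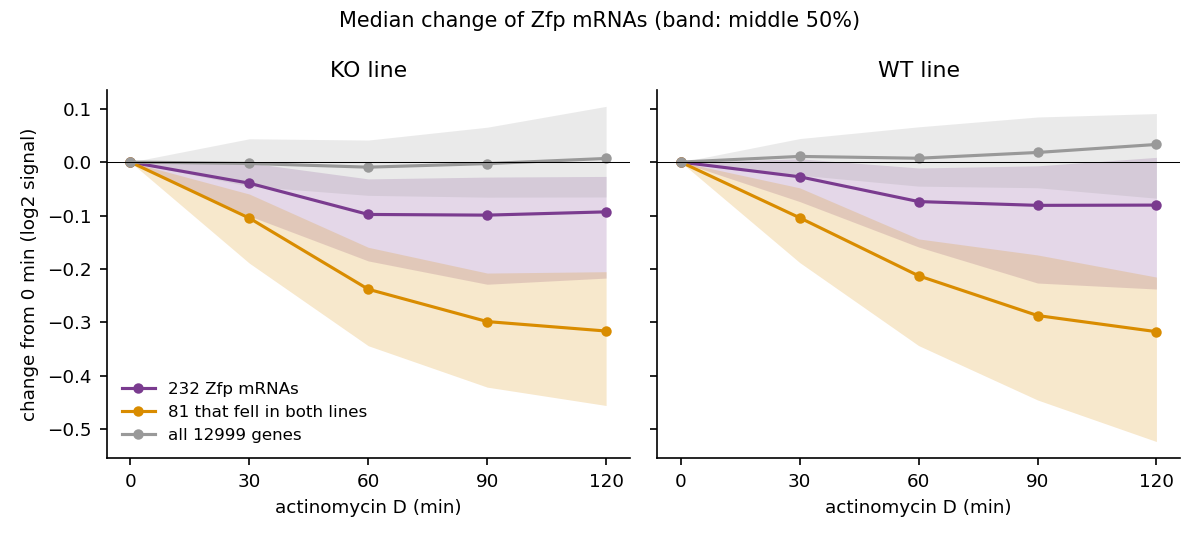
Median change in log2 signal from 0 min (y axis) against minutes of actinomycin D (x axis) for the 232 Zfp mRNAs, the 81 of them that fell in both lines and all 12999 genes, in KO (left) and WT (right), with bands for the middle 50% of genes. The members' median lies below that of all genes at each time after 0, and the 81, which were chosen by these falls, reach -0.32 in both lines at 120 min.

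The falls were found in each experiment taken by itself. With 1 slope per line and experiment, the members' median ran from -0.06 to -0.04 over the 5 KO series and from -0.07 to -0.03 over the 5 WT series. The median of all genes ran from -0.00 to 0.01 in the KO series and from -0.01 to 0.02 in the WT series. Between 66.8% and 84.1% of the members had a slope below 0 in a given series, against 40.0% to 52.4% of all genes. In all 10 series 82 members had it, a count not made over all genes. The days were also split into 2 subsets, which the sample names do not mark as batches. Fitted alone, experiments 1 to 3 gave 91 members that fell in KO and 88 in WT, against 12.8% and 15.8% of all genes. Experiments 4 and 5 gave 86 in KO and 111 in WT, against 11.99% and 17.66% of all genes.

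**Figure D2:**
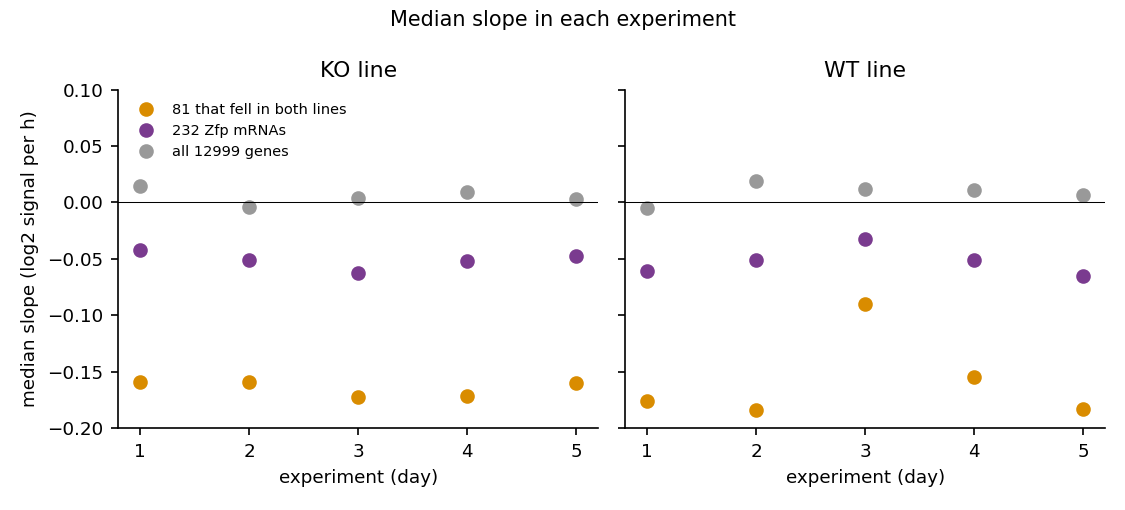
Median slope in log2 signal per h (y axis) in each of the 5 experiments (x axis) for KO (left) and WT (right), for the same 3 sets of genes. In each of the 10 series the members' median lies between -0.07 and -0.03 and below that of all genes.

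The share that fell was read at matched brightness as well, because dim and bright mRNAs have unequal room to fall. Among members with a mean signal under 8.75, 39 of 139 fell in both lines (28.1%), against 7.63% of all genes at that level. Between 8.75 and 9.25 it was 33 of 65 (50.8%; all genes, 19.5%), and above 9.25 it was 9 of 28 (32.1%; all genes, 12.3%). For scale, 10 of 12 Klf genes, zinc finger factors of which several are induced by serum, fell in both lines (83.3%), and 1 of 46 ribosomal protein genes did (2.17%).

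Zfp622, the counterpart of the yeast factor Rei1 that acts in the last steps of large ribosomal subunit assembly, had the steepest slope in both lines. Its log2 signal at 0 min was 10.56, 10.61, 10.78 and 10.40 in KO, against 10.60, 10.87, 10.68, 10.74 and 10.86 in WT. At 120 min it was 9.05, 8.97, 8.79, 8.69 and 8.78 in KO, against 8.59, 8.62, 8.60, 8.85 and 8.81 in WT. Each array at 120 min thus lay more than 1 log2 unit below each array of its line at 0 min, with no overlap. The slope was -0.91 ± 0.037 log2 per h in KO and -1.06 ± 0.036 in WT (SE; limma adjusted p = 2.78e-25 and 6.66e-29), which corresponds to halving times of 65.7 min and 56.8 min. The slope difference of 0.14 ± 0.052 did not pass (adjusted p = 0.279). Its probe set is of a type whose probes may also match other transcripts, and its 4 tested probe sets had slopes from -0.91 to -0.04 in KO and from -1.06 to -0.00 in WT, with 2 of the other 3 falling in both lines.

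Zfp655 followed a different course, with an early drop and then a plateau. It stood at 10.26, 10.36, 10.27 and 10.21 at 0 min in KO, against 10.03, 10.34, 10.07, 10.17 and 10.26 in WT. By 60 min it had changed by -1.32 in KO and -1.27 in WT, and by 120 min by -1.50 and -1.45, so that 88.3% and 87.5% of the change was complete at 60 min. Zfp622 at that time had covered 57.7% of its change in KO and 47.4% in WT. The Zfp655 slope was -0.77 ± 0.069 in KO and -0.73 ± 0.066 in WT (limma adjusted p = 4.76e-13 and 4.75e-13). Another of its 3 tested probe sets fell in both lines, with slopes of -0.54 in KO and -0.52 in WT. The last had slopes of -0.02 in KO and 0.00 in WT and passed in neither.

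Zfp281, a factor that binds GC-rich promoters and is known from embryonic stem cells, fell in both of its tested probe sets. Its log2 signal at 0 min was 10.68, 10.62, 10.52 and 10.60 in KO, against 10.82, 10.74, 10.78, 10.65 and 10.86 in WT. At 120 min it was 9.42, 9.43, 9.36, 9.34 and 9.45 in KO, against 9.47, 9.65, 9.68, 9.44 and 9.57 in WT. The arrays at 120 min were tightly grouped and lay below those at 0 min without overlap in both lines. The slopes were -0.62 ± 0.038 in KO and -0.60 ± 0.037 in WT (limma adjusted p = 1.07e-18 and 2.39e-19), with halving times of 97.3 min and 99.3 min. Zfp622, Zfp655 and Zfp281 were the 3 members with halving times under 120 min in both lines on the deposited scale. After background subtraction 25 members had them, a count not made over all genes. Zfp574, at 41.7 min in KO and 38.0 min in WT, then stood beside Zfp622 at 42.0 min in KO and 35.6 min in WT. The line for Zfp574 runs through a plateau close to background, so its halving time depends strongly on the background chosen.

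**Figure D3:**
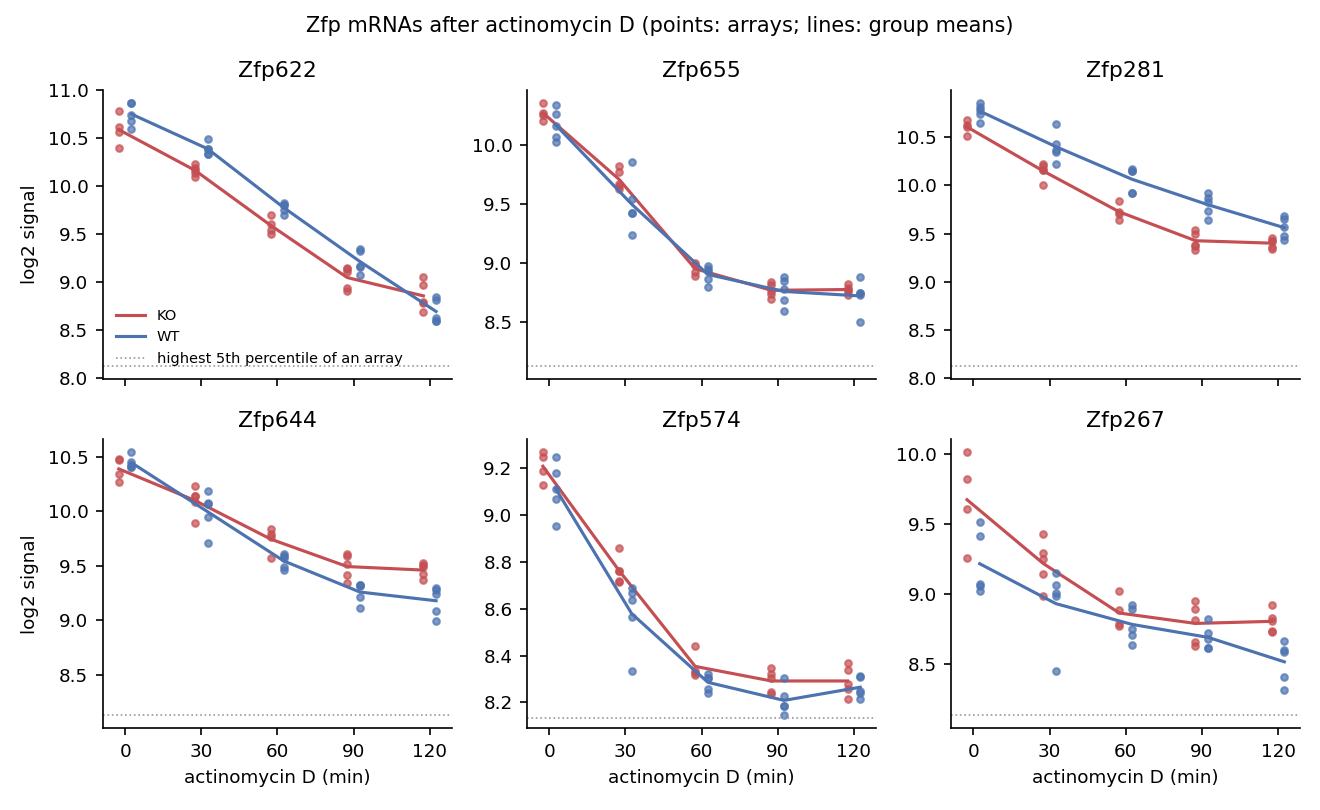
Log2 signal (y axis) of 6 of the 10 fastest-falling members against minutes of actinomycin D (x axis), with a point per array, lines through the group means for KO and WT, and a dotted line at 8.13, the highest 5th percentile of any array. Zfp655, Zfp574 and the KO arrays of Zfp267 level off after 60 min, while Zfp622 goes on falling to 120 min.

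Zfp644, whose human counterpart works with the histone methyltransferases G9a and GLP, had slopes of -0.49 ± 0.042 log2 per h in KO and -0.65 ± 0.041 in WT (limma adjusted p = 1.72e-13 and 6.4e-19). At 120 min its mean was 9.46 ± 0.066 in KO and 9.18 ± 0.13 in WT (SD, n = 5 each), a difference of 0.28 ± 0.07 (SE; limma adjusted p = 0.00167), while at 0 min the difference of -0.06 ± 0.075 did not pass (adjusted p = 0.655). The slope difference of 0.17 ± 0.059 did not pass either (adjusted p = 0.254). The 6 tested probe sets of Zfp644 had slopes from -0.49 to 0.05 in KO and from -0.65 to 0.04 in WT. Besides the brightest, 2 of them fell in both lines. Zfp948 had slopes of -0.38 in KO and -0.51 in WT, and its other tested probe set had slopes of -0.04 in KO and -0.00 in WT.

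Zfp574 ended nearest to background among the 10 fastest. Its means at 0, 30, 60, 90 and 120 min were 9.21, 8.76, 8.35, 8.29 and 8.29 in KO, and 9.11, 8.58, 8.29, 8.21 and 8.27 in WT. Nearly all of its change, 93.2% in KO and 97.5% in WT, had been made by 60 min, where the signal came close to the 8.13 below which folds have no meaning. From 60 min on its means lay below the array medians of 8.47 to 8.56, so Zfp574 passed the filter mainly through arrays at 0 and 30 min. Its falls are thus partly selected by the filter. Zfp24, a transcription factor needed for myelin formation, took the slower path, with 58.5% of its change by 60 min in KO and 47.3% in WT, and slopes of -0.37 and -0.47. Zfp503, a repressor of the developing striatum, changed by -0.09 at 30 min in KO and -0.02 in WT, and by -0.66 at 120 min in both. The remaining members among the 10 fastest, Zfp267 and Zfp9, had slopes of -0.42 and -0.34 in KO, and -0.33 and -0.36 in WT.

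The first 30 min alone sufficed for a smaller set. In KO 19 members were lower at 30 min than at 0 min (8.19%; all genes, 0.954%), and in WT 15 were (6.47%; all genes, 1.55%), 12 of them in both lines. Of the 22 called in either line, 21 were among the 81 that fell over 120 min in both. The arrays at 0 and 30 min enter both calls, so part of this overlap is built in. Averaged over the lines, the largest early changes were those of Zfp655, -0.56 in KO and -0.67 in WT, and of Zfp574, -0.44 and -0.53 (limma adjusted p between 1.13e-06 and 1.26e-11). As given above, the falls of Zfp574 are partly selected by the filter, which it passed mainly through arrays at 0 and 30 min. In KO, Zfp281 and Zfp267 changed by -0.46 each, slightly more than Zfp574. The KO count was 11 without replicate 1, without replicate 2 or without replicate 4. The difference between the lines in this first step passed for 0 members (limma; all genes, 0.0231%), with 4 at an unadjusted p under 0.05 (all genes, 2.54%).

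By role, the promoter-binding factors gave 3 of 7 measured members that fell in both lines (42.9%), beside 34.9% of all members and 12.3% of all genes. The role lists are short, and whether their shares differ from that of all members was not tested. Besides Zfp281 these were Zfp462, with slopes of -0.24 in KO and -0.21 in WT, and Zfp292, with -0.25 and -0.20. The other tested probe set of Zfp462 fell in KO, with a slope of -0.11, and did not pass in WT, at -0.07. Zfp148, which binds GC-rich promoters as ZBP-89, fell in KO but not in WT by its brightest probe set (-0.20 ± 0.066; limma adjusted p = 0.0215), a call lost without replicate 2 (adjusted p = 0.246) and without replicate 4 (0.0581). Of its other 5 tested probe sets, 3 fell in both lines, with WT slopes down to -0.18, so its probe sets disagree. Zfp263 fell in WT alone (-0.08; adjusted p = 0.0316), a call lost without replicate 1 (0.216), without replicate 2 (0.0763), without replicate 4 (0.0563) and without replicate 5 (0.0941). Zfp410, the activator of the chromatin remodeller gene Chd4, had slopes of 0.00 in KO and -0.02 in WT and did not pass in either, while its other tested probe set fell in WT (-0.08; adjusted p = 0.0217). Zfp335 had slopes of 0.06 in KO and 0.02 in WT and passed in neither, but passed in KO without replicate 4 (adjusted p = 0.0346) and with the replicate block (0.0292).

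Of the members known for silencing imprinted genes and retroelements, 1 of 4 fell in both lines (25%), beside 34.9% of all members and 12.3% of all genes. It was Zfp445, a guardian of genomic imprints, with slopes of -0.20 ± 0.057 in KO and -0.32 ± 0.054 in WT (limma adjusted p = 0.00547 and 5.12e-06). Its 0 min arrays read 9.69, 9.58, 9.82 and 9.74 in KO, against 9.81, 9.94, 9.80, 10.09 and 10.24 in WT. Its 120 min arrays read 9.21, 9.32, 9.45, 9.33 and 9.47 in KO, against 9.08, 9.57, 9.03, 9.62 and 9.68 in WT. The WT arrays spread by experiment at both times, with experiments 4 and 5 the highest. The other tested probe sets of Zfp445 did not fall in both lines. Their slopes were -0.07 in KO for each, and -0.08 and -0.14 in WT, where only the last passed. Zfp809, which silences retroviruses in embryonic cells, fell in WT alone (-0.06; adjusted p = 0.027), a call lost without replicate 1 (0.118), without replicate 2 (0.104) and without replicate 5 (0.0794). Zfp932 did not pass. Zfp568 did not pass by its brightest probe set, while its other tested one fell in both lines, with slopes of -0.30 in KO and -0.38 in WT. Zfp57, the partner of Zfp445 in imprint upkeep, did not pass the filter with a mean of 8.36.

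Regulators of fat and bone precursors gave 2 of 3 (66.7%), beside 34.9% of all members and 12.3% of all genes. Zfp521, which holds back fat cell commitment, had slopes of -0.33 ± 0.036 in KO and -0.36 ± 0.035 in WT (limma adjusted p = 1.39e-10 and 1.84e-12). It ended higher in KO at 120 min, at 9.20, 9.04, 8.74, 8.87 and 8.96 in KO, against 8.56, 8.84, 8.67, 8.56 and 8.64 in WT, with overlap (difference 0.31 ± 0.077, adjusted p = 0.00143), a call lost without replicate 1 (0.0545). Zfp516, an activator of brown fat genes, had slopes of -0.19 ± 0.028 in KO and -0.32 ± 0.026 in WT (limma adjusted p = 4.8e-07 and 2.69e-14). Its slope difference of 0.13 ± 0.038 did not pass (adjusted p = 0.095), but passed with the replicate number as a block, at 0.13 with adjusted p = 0.0292, without replicate 3 (0.0118), after background subtraction (0.0468) and after quantile normalization (0.0455). Zfp467 had slopes of -0.01 in KO and 0.00 in WT, and Zfp423, a factor of fat cell precursors, did not pass the filter.

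The members that work on RNA, ribosomes, splicing and the spindle had calls in both directions. Zfp622, Zfp830 and Zfp638 fell in both lines, 3 of 8 (37.5%), beside 34.9% of all members and 12.3% of all genes. Zfp830, a nuclear protein needed in the early embryo, read 9.48, 9.55, 9.58 and 9.53 at 0 min in KO, against 9.25, 9.33, 9.58, 9.19 and 9.26 in WT, and had slopes of -0.41 ± 0.042 in KO and -0.27 ± 0.04 in WT (limma adjusted p = 2.33e-11 and 2.15e-07). Zfp638, which takes part in splicing, had slopes of -0.17 in KO and -0.19 in WT. Zfp207, the spindle assembly factor BuGZ and the brightest member, fell in WT by its brightest probe set (-0.10; adjusted p = 0.0364), a call lost without replicate 1 (0.219), without replicate 2 (0.121) and without replicate 3 (0.0539). Another of its 6 probe sets fell in both lines, with slopes of -0.22 in each. The RNA-binding Zfp106 rose in WT by its brightest probe set (0.08 ± 0.027; adjusted p = 0.0119), a call lost without replicate 1 (0.0613) and without replicate 3 (0.0503). Another of its probe sets rose in both lines, by 0.11 in KO and 0.12 in WT, and another in KO, by 0.12. Zfp326 and Zfp346 did not pass in either line, except that Zfp326 rose in KO with the replicate block (adjusted p = 0.0473). By their brightest probe sets, neither of the ubiquitin and SUMO ligases passed in either line, with slopes of 0.04 in KO and 0.02 in WT for Zfp91 and of -0.04 and -0.07 for Zfp451. Zfp451 fell in WT with the replicate block (adjusted p = 0.0389), and another of its probe sets fell in both lines, with slopes of -0.19 in KO and -0.26 in WT.

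Members that rose relative to the array average were 3 in both lines. Zfp593, which like Zfp622 serves the large ribosomal subunit, rose by 0.11 ± 0.021 log2 per h in KO and 0.10 ± 0.02 in WT (limma adjusted p = 0.0001 and 6.55e-05). It read 9.80, 9.84, 9.93 and 9.97 at 0 min in KO, against 9.94, 10.03, 9.74, 10.02 and 9.79 in WT. At 120 min it read 10.08, 10.14, 10.04, 10.13 and 10.02 in KO, against 10.04, 10.04, 10.14, 10.20 and 10.13 in WT, above the 0 min arrays in both. Its other tested probe set fell in both lines, with slopes of -0.10 in KO and -0.18 in WT, so that the 2 probe sets disagree. Zfp560 rose by 0.11 ± 0.026 in KO and 0.09 ± 0.024 in WT, where the call was lost without replicate 3 (adjusted p = 0.0776). Zfp938 rose by 0.08 ± 0.022 in KO and 0.10 ± 0.021 in WT. The number that rose was 3 in KO without replicate 2 or without the arrays at 0 min, and 9 in WT without replicate 3. Without the arrays at 0 min, calls were lost for Zfp560 in KO (adjusted p = 0.0663) and WT (0.0915) and for Zfp938 in WT (0.0742). Among the falls described above the same was so for Zfp148 (0.306) and Zfp445 (0.113) in KO, and for Zfp263 (0.269), Zfp809 (0.266) and Zfp207 (0.157) in WT.

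The KO and WT slopes of the members were close to each other. Across the 232 members they correlated at Pearson r = 0.94, a description over mRNAs that share the same arrays. The slope difference (KO minus WT) ran from -0.20 to 0.17 with a median SE of 0.032, and 229 members lay between -0.15 and 0.15. It passed for 1 member below 0 (0.431%; all genes, 0.323%) and 0 above 0 (limma; all genes, 1.08%), and 24 members had an unadjusted p under 0.05 (10.3%; all genes, 9.43%). Those shares lie near those of all genes. Without replicate 3, 3 members passed on each side.

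**Figure D4:**
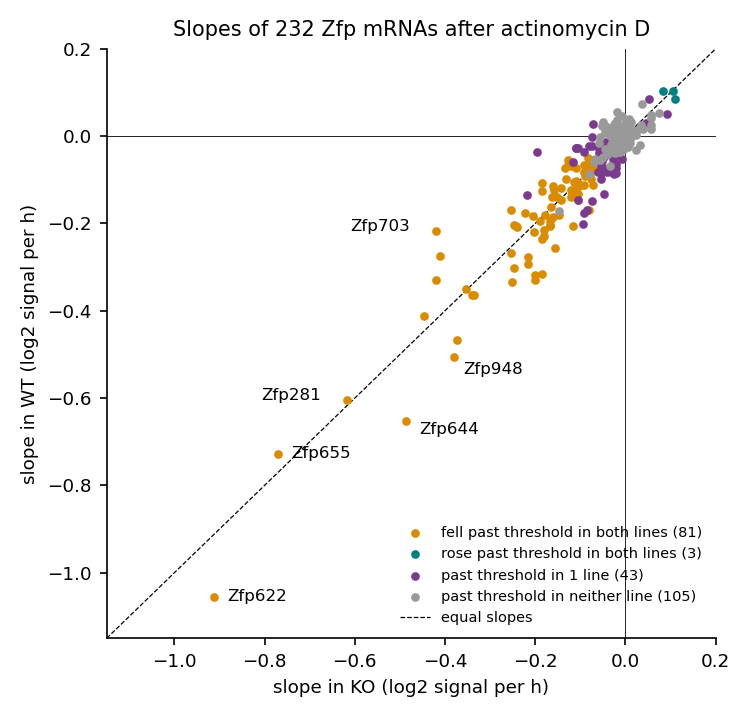
Slope in WT (y axis) against slope in KO (x axis), in log2 signal per h, for each of the 232 Zfp mRNAs, coloured by the calls in the 2 lines, with a dashed line of equal slopes. The points follow the line, from Zfp622 at -0.91 in KO and -1.06 in WT to the 3 members that rose, and Zfp703 lies above it.

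The 1 member that passed was Zfp703, a transcriptional repressor whose human counterpart is amplified in some breast cancers. At 0 min it read 9.32, 9.19, 9.20 and 9.33 in KO, against 8.72, 8.76, 8.72, 8.75 and 9.02 in WT, with each KO array above each WT array. At 120 min it read 8.48, 8.41, 8.46, 8.55 and 8.49 in KO, against 8.52, 8.42, 8.30, 8.39 and 8.40 in WT, and the lines overlapped. It had slopes of -0.42 ± 0.027 in KO and -0.22 ± 0.026 in WT, a difference of -0.20 ± 0.037 (SE; limma adjusted p = 0.000819). The line that started higher fell faster, and both ended near background. Within experiments 1 to 3 the difference was -0.24 (adjusted p = 0.000509) and within experiments 4 and 5 it was -0.16 (adjusted p = 0.367). After subtraction of a background of the 5th percentile on the linear scale it was -0.26 and did not pass (adjusted p = 0.43). Its other tested probe set had slopes of -0.01 in KO and 0.04 in WT.

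Before actinomycin D, after 90 min of serum, 32 members were higher in KO (13.8%; all genes, 16.0%) and 15 lower (6.47%; all genes, 13.0%). At 120 min 60 members differed (25.9%; all genes, 36.5%), of which 42 were higher in KO (18.1%; all genes, 22.0%) and 18 lower (7.76%). Over all genes, the rest of the 36.5% were lower. These shares of members lie below those of all genes. Of the 32, 19 were also higher at 120 min, and of the 15, 8 were also lower, with 0 in opposite directions. Of the 32, 18 were among the 81 that fell in both lines, and of the 15, 5 were. The 0 min arrays enter both the line difference and the slopes, so part of this overlap is built in. None of these overlaps was counted over all genes. The counts moved with single experiments, and are given here without a share over all genes. At 0 min 21 were higher without replicate 1, and 23 lower without replicate 3 and 9 without replicate 4. At 120 min 23 were higher without replicate 1, and 8 lower without replicate 1 or without replicate 2.

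The member furthest above WT was Zfp52, at 9.65, 9.60, 9.69 and 10.22 in KO, against 9.17, 9.10, 8.81, 9.46 and 9.43 in WT, a difference of 0.60 ± 0.2 (SE; limma adjusted p = 0.0191). The KO arrays all lay above the WT arrays. Experiment 4 was the highest in KO, and experiments 4 and 5 were the highest in WT, while experiment 5 has no KO array at 0 min. Within experiments 1 to 3 the difference was 0.62. Within experiments 4 and 5 it was 0.78, but there the only KO array was that of experiment 4, which stood far from the other KO arrays. The call was lost without replicate 1, at 0.64 (adjusted p = 0.0512), without replicate 3, at 0.54 (0.0939), and without replicate 4, at 0.52 (0.0782). With the replicate number as a block the difference was 0.69 (adjusted p = 1.89e-10), and its slopes then passed in KO (-0.18; 4.43e-05) and WT (-0.17; 4.24e-05), as they did not without the block. Zfp979 read 8.99, 8.96, 9.09 and 9.51 in KO, against 8.48, 8.61, 8.38, 8.72 and 8.68 in WT, higher by 0.56 ± 0.13 (adjusted p = 0.000619) and without overlap. Zfp52 and Zfp979 both sit next to other Zfp genes, and probes may not tell near copies apart.

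Zfp639 had the smallest SE among the 5 furthest above WT: it read 9.46, 9.32, 9.57 and 9.39 in KO, against 8.98, 8.95, 8.74, 8.93 and 8.94 in WT, higher by 0.53 ± 0.049 (limma adjusted p = 7.8e-12), a fold of 1.44. It stayed higher at 120 min by 0.43 ± 0.047. Zfp703, described above, was higher by 0.46 ± 0.053 (adjusted p = 1.8e-09). Zfp267, higher by 0.46 ± 0.12 (adjusted p = 0.00239), overlapped between the lines at 10.01, 9.82, 9.25 and 9.60 in KO, against 9.02, 9.07, 9.06, 9.42 and 9.52 in WT. Its call was lost without replicate 1 (adjusted p = 0.0976) and without replicate 2 (0.0685). Within experiments 4 and 5, with a single KO array at 0 min, the difference was 0.14.

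Lower in KO were Zfp362, Zfp637, Zfp618, Zfp365 and Zfp931, by 0.33 to 0.42 on the log2 scale. Zfp362 read 8.71, 8.50, 8.63 and 8.77 in KO, against 9.06, 9.01, 9.01, 9.12 and 9.19 in WT, a difference of -0.42 ± 0.057 (limma adjusted p = 9.14e-08). Zfp637 read 9.18, 9.00, 9.34 and 9.28 in KO, against 9.57, 9.51, 9.48, 9.70 and 9.78 in WT, a difference of -0.41 ± 0.061. Both groups were apart by array. Zfp618 stood near background in KO throughout, with means of 8.32, 8.27, 8.31, 8.30 and 8.31 over the 5 times. In WT its means were 8.70, 8.70, 8.62, 8.68 and 8.66. The KO means lay below the array medians of 8.47 to 8.56, so Zfp618 passed the filter mainly through WT arrays. Its line difference is thus partly selected by the filter. The slopes of Zfp618 passed in neither line, while another of its probe sets fell in WT, with a slope of -0.16. Zfp365 and Zfp931 differed by -0.33 each, and within experiments 4 and 5, with a single KO array at 0 min, neither passed (adjusted p = 0.207 and 0.11).

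**Figure D5:**
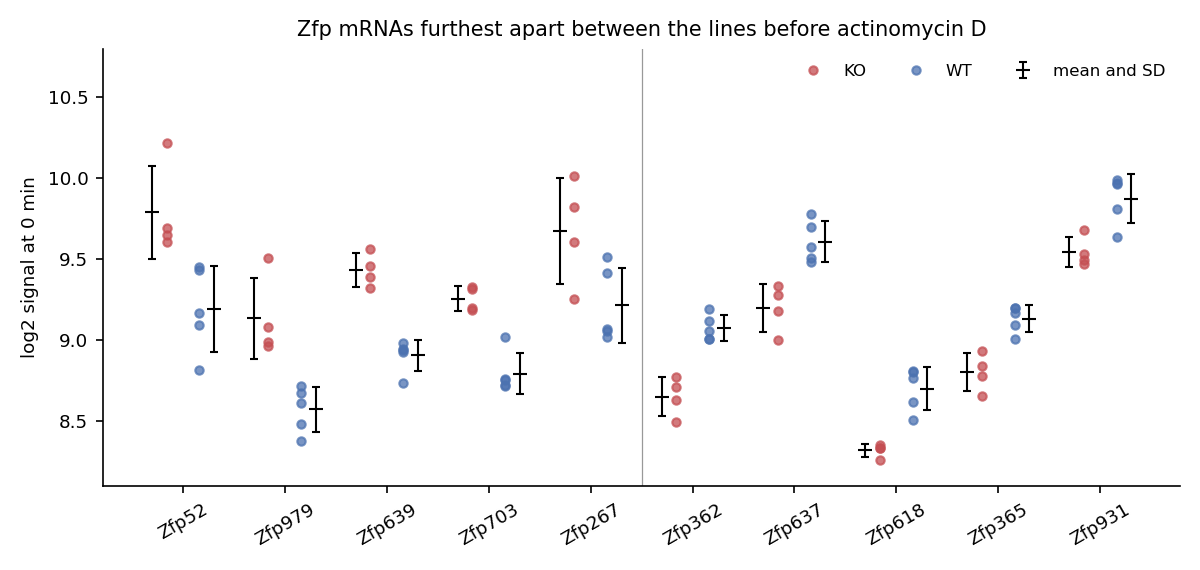
Log2 signal at 0 min (y axis) of the 5 members furthest above and the 5 furthest below WT in the KO line among those past the threshold, with a point per array, KO left of WT, and bars for mean and SD. KO and WT arrays stand apart for each of the 10 except Zfp267 and Zfp931.

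The cofactors through which KRAB zinc finger proteins act are no members but were read beside them. Of 14 measured, 2 fell in both lines (14.3%; all genes, 12.3%), the scaffold Trim28 and its partner Atf7ip, with slopes of -0.15 and -0.20 in KO, and -0.19 and -0.12 in WT. The deacetylase Hdac1 rose in both lines, by 0.11 in each, and the remodeller Smarcad1 rose in KO, by 0.13. At 0 min 6 of the 14 were higher in KO (all genes, 16.0%) and 0 lower (all genes, 13.0%). Trim28 was higher by 0.38 (limma adjusted p = 0.000731), and Morc3 was the highest, by 0.63.

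Position in the genome and choice of probe set were read last. In the RefSeq annotation 113 members lie next to another Zfp gene, and 35 of these fell in both lines (31.0%), while 118 do not, and 46 of these fell (39.0%); the 1 other member, Zfp389, is not among the protein-coding genes whose order was used. Of 92 members with more than 1 tested probe set, the brightest fell in both lines for 34, and another probe set of the same gene did too for 20 of them. For 2, Zfp266 and Zfp787, named after their values were seen, another probe set rose, and for 18 members another probe set fell in both lines where the brightest did not. By any of their tested probe sets, a rule added after seeing the data, 112 members fell in KO and 126 in WT.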

How the data were processed

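RNA of 48 samples was measured on Affymetrix Mouse Genome arrays. The deposited values are log2 signals per probe set and array, with the log base inferred from their range. The probe summary, background correction and scaling by the authors are not given in the sources used here. The number of arrays limits the precision. The table holds 45101 probe sets, of which 64 are controls. A filter (above the median of 4 or more arrays) left 27500 to test, 23140 with 1 symbol in the probe table, 681 with several and 3679 with none. The 232 members are single rows of fits over all 27500.

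Fits used limma 3.58.1 in R 4.3.3 (lmFit, eBayes with trend and robust) over all 48 arrays, without a block: 1 line of log2 signal on hours per cell line, and 1 mean per group. All tests were two-sided with Benjamini-Hochberg adjustment over the 27500 probe sets, and calls were made at 0.05. Errors are SE for fitted values and SD for group means. The fits were checked on simulated data. All genes means 12999 genes with their brightest probe set each. Replicates are experiments, so p-values measure the spread between days within 1 line per genotype. Alternatives were a replicate block, single experiments left out, experiments 1 to 3 or 4 and 5 alone, other scalings, filters and time windows, and the linear background subtraction.

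Named genes were the 10 steepest falls and up to 5 rises in both lines, up to 5 slope differences each way, 5 differences each way at 0 min, the extremes of signal and of the filter, and members of the role lists as examples. Members and lists were chosen with earlier results of these data known. RefSeq symbols, neighbours and promoters are of GRCm38.p6, in which all 232 members were found. Protein sequences were not used here, so KRAB domains and fingers were not counted.

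The series text says that both lines were run side by side on each of 5 days, which the replicate number is taken to name. Deviations from group means correlated within a number at median r of 0.24, 0.21, 0.18, 0.31 and 0.51 for experiments 1 to 5, against -0.10 between numbers.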

Additional observations from a re-analysis of the deposited data

Results flagged for a closer look

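Over 88 groups of 4 or 5 arrays of the named members, 5 arrays stood far from the others of their group by Dixon's test, where chance would set apart about 1 in 20 groups. Zfp938 read 8.873 in experiment 3 of WT at 0 min, below the other 4 arrays. Zfp52 read 10.22 in experiment 4 of KO at 0 min, above the other 3. Zfp639 read 8.738 in experiment 3 of WT at 0 min, below the other 4. Zfp703 read 9.022 in experiment 5 of WT at 0 min, above the other 4, and experiment 5 has no KO array at that time. Zfp637 read 8.722 in experiment 2 of KO at 120 min, below the other 4. The slope of Zfp703 differed between the lines by -0.203 log2 per h (KO minus WT), the 1 member whose difference passed in limma. Its values changed with the background and with the experiments used, as given above. What sets these apart was not tested.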

How the results depend on the processing

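Under the alternatives that kept the brightest probe set, no named value changed sign past the threshold. By the other tested probe set, Zfp593 fell in both lines instead of rising, with slopes of -0.10 in KO and -0.18 in WT. Except where given above, the counts in this section stand without a share over all genes. The members that fell, 96 in KO and 106 in WT, were 46 and 59 over 0 to 60 min and 112 and 126 by any tested probe set. Counted per probe set, 155 and 173 of the members' 382 tested probe sets fell; both of these alternatives were added after seeing the data. The WT count was 67 without the arrays at 0 min. The 5 that rose in KO were 1 in experiments 4 and 5, 8 after quantile normalization, 10 after median centring, 0 over 0 to 60 min, 3 without the arrays at 0 min, 3 with plain probe sets, 8 by any tested probe set and 10 counted over every tested probe set; the 4 in WT were 9 after quantile normalization, 13 after median centring, 1 over 0 to 60 min, 7 by any tested probe set and 8 counted over every tested probe set. The slope difference below 0 (1 member) was called for 0 in experiments 4 and 5, after background subtraction and over 0 to 60 min; above 0 (0 members) it was called for 1 with the replicate block, in experiments 4 and 5, after background subtraction and after quantile normalization.

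The early falls, 19 in KO and 15 in WT, were 9 and 7 in experiments 1 to 3, 10 and 26 in experiments 4 and 5, and 5 and 9 after background subtraction. At 0 min the 15 lower were 7 in experiments 1 to 3 and 9 after background subtraction, and the 32 higher were 21 after background subtraction. At 120 min the 42 higher were 27 in experiments 4 and 5. With single replicates left out, the counts ranged from 3 to 5 for rises in KO, 3 to 9 for rises in WT, 1 to 3 for slope differences below 0, 0 to 3 above 0, 11 to 17 for early falls in KO, 9 to 23 lower and 21 to 34 higher at 0 min, and 8 to 17 lower and 23 to 42 higher at 120 min.

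The replicate block gave 111 members that fell in KO and 112 in WT, and 45 higher and 17 lower at 0 min. Over 329 tests of 47 named members (slopes, first 30 min, and lines at 0 and 120 min) it brought 19 past the threshold, in 15 members, and lost 0. Besides those given above, it gained the fall of Zfp760 in KO, the WT change over 30 min of Zfp948, Zfp9, Zfp637 and Zfp521, the difference at 0 min of Zfp281, Zfp462, Zfp521 and Zfp91, and that at 120 min of Zfp948, Zfp24, Zfp346 and Zfp451. Background subtraction multiplied the slopes of the 81 members that fell in both lines by a median of 2.46 in KO and 2.75 in WT. Subtracting a constant steepens a falling log2 signal by construction, so the direction of this change was fixed in advance. The background was set at the 5th percentile and not measured, so slopes and halving times depend on that choice. Among dim members, small changes can go undetected, and how often was not tested. The causes of these shifts were not tested.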
